A study of Mus musculus with 35 samples.

Results

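The genes described here are 32 genes of glycolysis and of the response to low oxygen, chosen by name. A listed symbol was kept when it was in the count tables and above 1 CPM (counts scaled by the library total) in at least 5 of the 35 samples. All 32 met this, among 13421 of 54735 genes that did. *Egln3* and *Ankrd37* were above 1 CPM in 13 samples each, and the other members in all 35.

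Liver macs were sorted from C57Bl/6J mice, males per the study's methods, fed a standard diet (SD) or a Western diet (WD), which is rich in fat and cholesterol with sugars in the drinking water, and their RNA was sequenced in bulk. Resident Kupffer cells (ResKCs, CLEC4F+TIM4+) gave 7 SD and 5 WD samples at 12 weeks of diet and 6 SD and 6 WD samples at 24 weeks. CLEC4F+TIM4- cells (moKCs) gave 5 samples and CLEC4F- macs gave 6, all from WD-fed mice at 24 weeks, with no SD sample of either. For the 5 WD samples at 12 weeks, 1 label field names the standard diet against their titles and descriptions, and they were grouped by title. The mice carry no engineered allele by their labels, and nothing in the labels says whether samples of different populations came from the same mice.

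Glycolysis turns glucose into pyruvate in a chain of cytosolic enzymes. Hexokinases trap glucose in the cell, phosphofructokinase commits it to the pathway, and lactate dehydrogenase and pyruvate dehydrogenase kinase steer pyruvate towards lactate and away from the mitochondria. Several of these enzymes are classical targets of hypoxia-inducible factor (HIF), whose alpha subunit is marked for destruction by the prolyl hydroxylases EGLN1 and EGLN3 and by VHL when oxygen is present. In macrophages HIF and glycolysis are also raised by inflammatory stimuli, so transcripts of this set are read in both contexts.

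The libraries held 11568590 to 15163845 counts, at which 3 counts are 0.198 to 0.259 CPM (a floor for counting error only). *Clec4f* had a median of 12040 CPM in WD ResKCs at 24 weeks, 10720 in moKCs and 1093 in CLEC4F- macs, and *Timd4* had 749, 9.17 and 7.66 CPM, in the order of the sort. CLEC4F- replicate 4 stood apart, with 12360 CPM summed over 8 Kupffer cell genes where the other 5 CLEC4F- samples had 1310 to 5576 CPM. The headers name their alignments in 2 ways, called here the first and second naming scheme (22 and 13 samples). Neither the WD ResKCs at 12 weeks (5 samples) nor the SD ResKCs at 24 weeks (6 samples) hold any of the second.

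Every value below is either a level in CPM, scaled by edgeR's TMM factors, or a log2 fold change from edgeR's quasi-likelihood test on the counts, with its standard error (SE). A gene was called at a Benjamini-Hochberg adjusted p under 0.05 over all 13421 genes. Of the 32 members, 20 were called in at least 1 of 7 comparisons and 12 in none. The panels of fold changes show the 3 comparisons in which members were called.

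**Figure D1:**
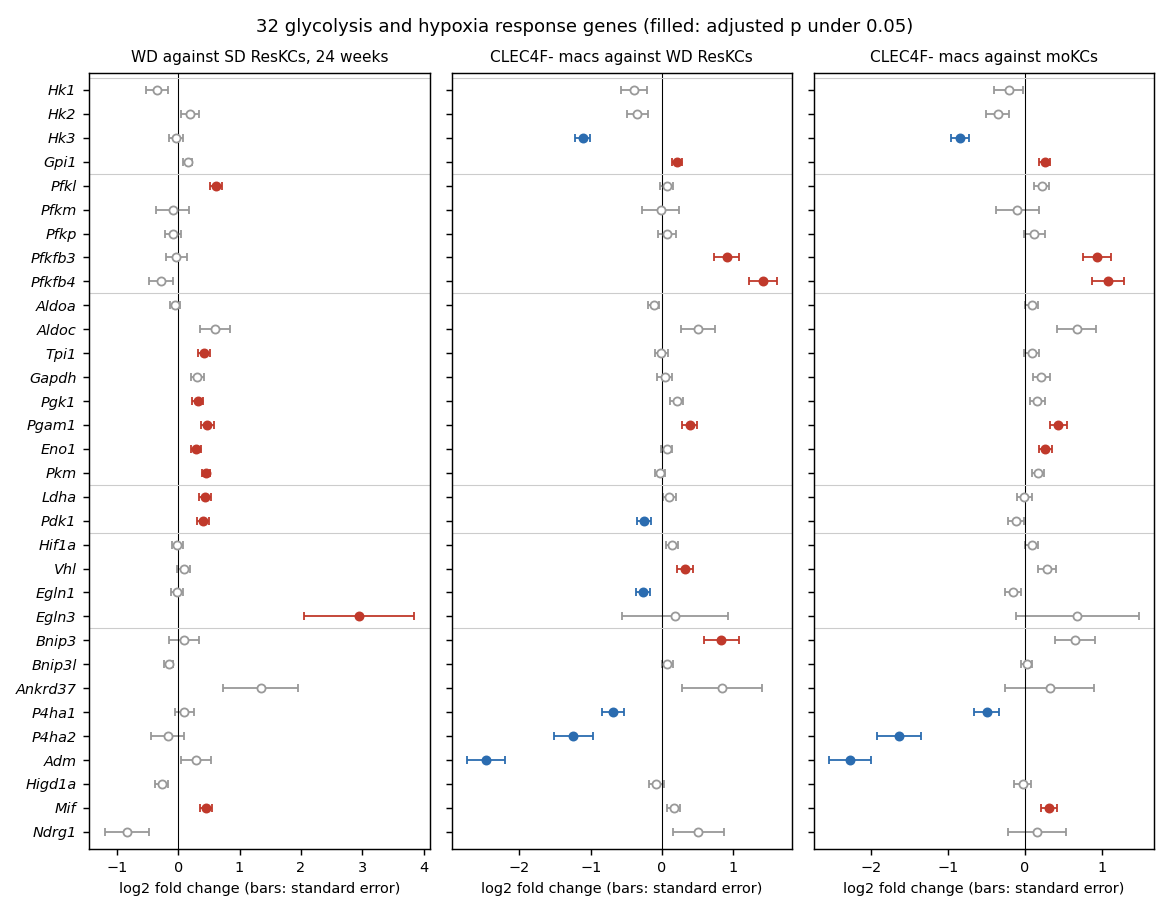
Log2 fold change (x axis, bars are standard errors) of each of the 32 genes (rows, ordered by role) in WD against SD ResKCs at 24 weeks, CLEC4F- macs against WD ResKCs and CLEC4F- macs against moKCs; each panel has its own x range. Filled points passed an adjusted p under 0.05: 10 higher and 0 lower for diet, 6 and 6 against ResKCs, 6 and 4 against moKCs, with *Adm* lowest at -2.47.

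Levels differed widely between members per length of exon in the GENCODE M21 gene models (mm10). Over all 35 samples the median was 202 CPM per kb for *Ldha*, 168 for *Aldoa*, 139 for *Hk3* and 119 for *Pkm*, and 0.399 for *Ankrd37* and 0.213 for *Egln3* at the other end. *Gapdh*, glyceraldehyde phosphate dehydrogenase and usually an abundant transcript, was at 4.83 CPM per kb, in rank 24 of 32. Of its 75-base windows, 22.6% are also in transcripts of 121 other genes, and how the counting handled reads that map to several places is not stated. More than 20% of windows were shared in 7 members, which besides *Gapdh* were *Pgk1* (52.8%), *Mif* (38.3%), *Pgam1* (34.9%), *Bnip3* (34.4%), *Eno1* (23.0%) and *Higd1a* (22.0%), so their levels are uncertain. Exons of other genes covered 26.4% of the exon length of *Ankrd37*, 22.5% of *Higd1a* and 22.3% of *Bnip3*. Within groups the members were steady: the pooled SD of log2 CPM was 0.19 in the median, under 0.25 for 19 of 32, lowest for *Gpi1* (0.11) and highest for *Egln3* (1.00).

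Promoters are shown for the 3 called HIF-target members with the highest absolute fold changes, because the core of the HIF binding element could be searched in them. The core was taken as ACGTG or GCGTG on either strand, from 250 bases before to 50 after the RefSeq start (GRCm38.p6). A promoter entry was found for 30 of 32 members, and 27 (90.0%) held a core in at least 1 entry, against 6587 of 9964 tested genes with an entry (66.1%) and 46.7% of all 27025 genes with one. Counted by entry, 81.4% of the 43 member entries and 43.8% of all 32851 entries held a core. The 250 bases before each start are printed 5′ to 3′ on the gene's strand, with cores in capitals; CACGC is GCGTG read on the other strand. *Egln3* lies on the minus strand and *Adm* and *P4ha2* on the plus strand.
Egln3, chr12:54203875-54204124: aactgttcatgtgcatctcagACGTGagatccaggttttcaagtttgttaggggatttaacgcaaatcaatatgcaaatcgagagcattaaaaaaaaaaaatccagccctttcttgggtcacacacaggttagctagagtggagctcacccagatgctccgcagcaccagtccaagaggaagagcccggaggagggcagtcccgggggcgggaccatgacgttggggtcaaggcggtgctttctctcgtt
Adm, chr7:110627407-110627656: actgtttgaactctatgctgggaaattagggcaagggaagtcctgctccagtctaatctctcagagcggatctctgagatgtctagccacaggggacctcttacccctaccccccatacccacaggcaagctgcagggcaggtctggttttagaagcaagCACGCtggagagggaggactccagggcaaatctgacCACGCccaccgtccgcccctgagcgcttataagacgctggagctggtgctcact
P4ha2, chr11:54100674-54100923: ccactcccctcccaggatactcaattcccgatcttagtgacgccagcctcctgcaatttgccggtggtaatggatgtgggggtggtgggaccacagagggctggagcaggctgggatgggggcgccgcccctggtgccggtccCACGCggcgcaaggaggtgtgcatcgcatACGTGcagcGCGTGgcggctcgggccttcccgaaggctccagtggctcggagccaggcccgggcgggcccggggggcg
The core began 229 bases before the start in *Egln3*, 90 and 54 in *Adm*, and 107, 78 and 69 in *P4ha2*, which holds a further core 10 bases after the start, outside the printed stretch. A match of 5 letters describes the sequence and does not show binding, and the 3 genes did not move alike in the comparisons below.

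The first question was whether the WD changed these genes in ResKCs. At 24 weeks 10 of 32 members were higher in WD than in SD ResKCs and 0 were lower, where 4.84% of all 13421 genes were called higher and 3.87% lower. The median log2 fold change was 0.13 over the members and 0.00 (0.0037) over all genes tested. Of the 19 members that are glycolytic enzymes or act directly on the pathway, 8 rose, and of the 13 oxygen-sensing and hypoxia response members, 2 rose. The rises were small, between 0.29 and 0.62 on the log2 scale, except for *Egln3*.

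None of the 4 members of glucose phosphorylation and isomerisation was called. *Hk3*, the hexokinase of myeloid cells (chr13:55005985-55021385), was at 445 to 578 CPM with a median of 543 in SD ResKCs and at 475 to 566 with a median of 513 in WD ResKCs, and its log2 fold change was -0.04. *Hk1* (chr10:62268855-62379908) was at 86.4 to 142 CPM (median 104) on SD and at 65.6 to 121 (median 82.2) on WD. *Hk2* (chr6:82725025-82774454), the inducible form, was at 47.0 to 74.4 CPM (median 61.9) on SD and at 55.3 to 84.2 (median 69.2) on WD. For all 3 hexokinases the diet groups overlapped.

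At the phosphofructokinase step 1 of 5 members rose. *Pfkl*, the liver-type subunit (chr10:77986947-78010083), was at 60.1, 61.4, 62.8, 69.2, 70.6 and 79.2 CPM in the 6 SD samples and at 82.0, 95.8, 101, 108, 111 and 121 CPM in the 6 WD samples. Every WD sample was above every SD sample, and the log2 fold change was 0.62 (SE 0.091, adjusted p = 4.08e-05), a 1.53-fold level. It was called under all 9 other settings that set no fold limit, and with each of the 12 samples left out in turn.

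The other subunits did not follow. *Pfkm*, the muscle type (chr15:98092589-98132451), was at 2.38 to 8.06 CPM (median 3.92) on SD and at 2.19 to 7.52 (median 3.88) on WD. *Pfkp*, the platelet type (chr13:6579768-6648777), was at 54.0 to 101 CPM (median 68.9) on SD and at 52.7 to 75.8 (median 70.0) on WD. Per exon length *Pfkl* made up a median of 59.6% of the 3 subunits on SD (51.6% to 71.5%) and 72.4% on WD (61.6% to 76.5%), as a description. The bifunctional enzymes *Pfkfb3* (chr2:11471433-11554077) and *Pfkfb4* (chr9:108991778-109032228), which set the level of the main activator of phosphofructokinase, had log2 fold changes of -0.03 and -0.29 and were not called.

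Lower glycolysis held 5 of the 10 rises, in 5 of its 8 members. *Pkm*, a pyruvate kinase gene (chr9:59656368-59679375), was at 505 to 640 CPM (median 550) in SD ResKCs and at 634 to 838 (median 787) in WD ResKCs. Its log2 fold change was 0.45 (SE 0.072, adjusted p = 1.34e-04). The ranges overlapped through WD replicate 3, at 634 CPM. *Tpi1* (triose phosphate isomerase) rose by 0.42 (SE 0.093, adjusted p = 0.00456), from a median of 154 CPM to 213 CPM. *Pgam1* (phosphoglycerate mutase) rose by 0.48 (SE 0.11, adjusted p = 0.00441), from 31.1 to 42.5 CPM.

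*Pgk1* (phosphoglycerate kinase) was at 57.4 to 68.0 CPM on SD and at 69.2 to 84.2 CPM on WD without overlap, and its log2 fold change was 0.32 (SE 0.090, adjusted p = 0.0241). That call was lost without SD replicate 2 or 6 or WD replicate 2, with adjusted p of 0.051 to 0.0533. *Eno1* (enolase) was at 428 to 474 CPM on SD and at 469 to 602 CPM on WD, a rise of 0.29 (SE 0.075, adjusted p = 0.0145). The remaining 3 did not pass. *Gapdh*, at 16.5 to 19.97 CPM on SD and 20.7 to 25.4 CPM on WD, did not overlap but had an adjusted p of 0.0508 (log2 fold change 0.31), and it passed in 4 of 9 other settings, with adjusted p of 0.0133 to 0.049, among them DESeq2 (0.0379). Without SD replicate 5 the adjusted p of *Gapdh* was 0.05 (0.34). *Aldoa*, the main aldolase, had a log2 fold change of -0.05, and *Aldoc*, at a median of 3.57 CPM on SD and 4.49 CPM on WD, had 0.60 (adjusted p = 0.118).

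Both members of pyruvate fate rose. *Ldha*, the lactate dehydrogenase subunit that favours lactate (chr7:46841475-46855627), was at 544 to 661 CPM (median 593) in SD ResKCs and at 690 to 912 (median 821) in WD ResKCs. Every WD sample was above every SD sample, and the log2 fold change was 0.44 (SE 0.096, adjusted p = 0.00382). *Pdk1*, a kinase that switches off pyruvate dehydrogenase (chr2:71873224-71903858), was at 33.8 to 45.1 CPM (median 40.8) on SD and at 40.3 to 64.5 (median 56.2) on WD, a rise of 0.41 (SE 0.098, adjusted p = 0.00805).

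**Figure D2:**
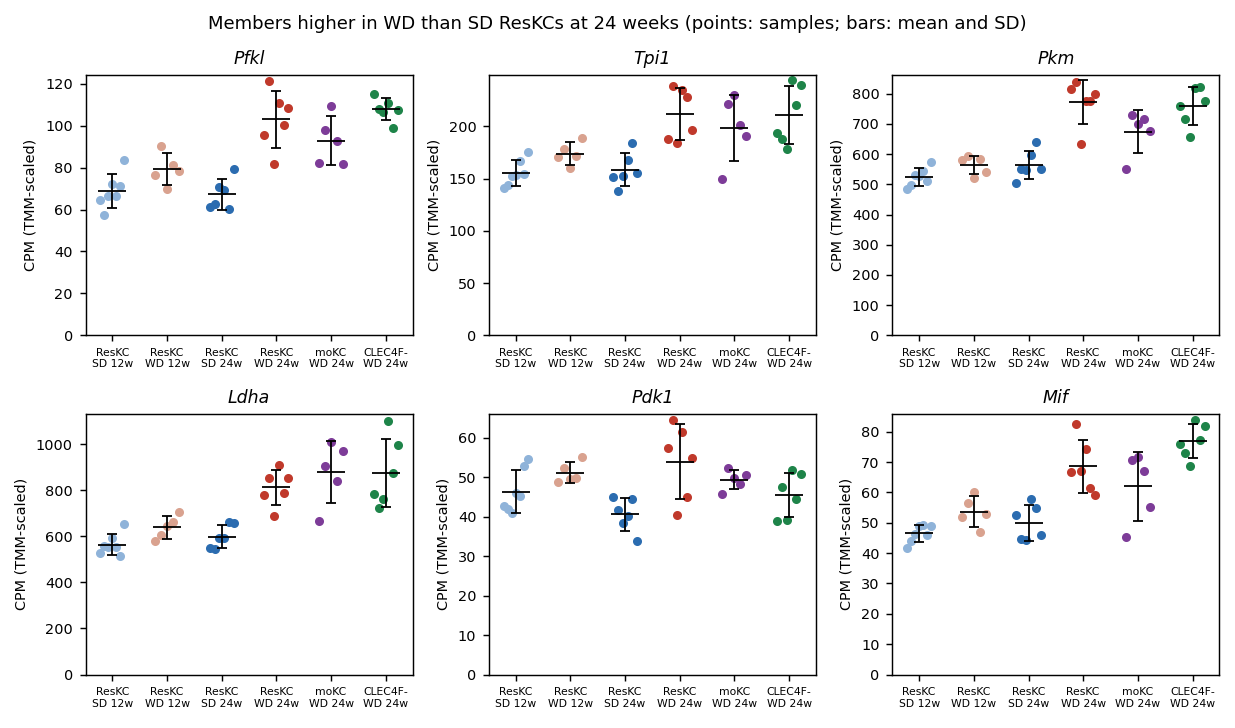
TMM-scaled CPM (y axis, from 0) of 6 members in every sample of the 6 groups (x axis), with the mean and SD of each group. In *Pfkl*, *Ldha* and *Mif* all 6 WD ResKC samples at 24 weeks lie above all 6 SD samples of that time, and in *Pkm* WD replicate 3, at 634 CPM, lies within the SD range.

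Of the oxygen sensors 1 of 4 was called. *Hif1a* (chr12:73901375-73947530) was at 101 to 123 CPM (median 116) in SD ResKCs and at 78.8 to 132 CPM (median 119) in WD ResKCs, and *Vhl* and *Egln1* also overlapped. *Egln3*, which HIF itself induces, was near the floor: 3 SD samples had 0 counts and the others 0.158, 0.301 and 0.571 CPM, and the 6 WD samples had 0.218, 0.537, 0.789, 1.81, 1.97 and 2.76 CPM. The groups overlapped, the sums were 13 counts on SD and 104 counts on WD, and the log2 fold change of 2.95 (SE 0.90, adjusted p = 0.0351) depends on the prior count. The call was lost without SD replicate 1, 2, 5 or 6 or WD replicate 3, 4 or 6 (adjusted p 0.0584 to 0.0829). WD replicate 3, the highest in *Egln3*, also had the highest hepatocyte gene sum of the 12 samples, 4037 CPM.

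Among the 9 HIF targets of other function 1 rose. *Mif*, a cytokine made by macrophages and many other cells, was at 44.2 to 58.0 CPM on SD and at 59.2 to 82.6 CPM on WD without overlap, a log2 fold change of 0.45 (SE 0.095, adjusted p = 0.00293). *Ankrd37* (1.35) and *Ndrg1* (-0.83) had large fold changes with adjusted p of 0.163 and 0.147, and the mitophagy receptor *Bnip3l* (-0.16) and *Higd1a* (-0.27) lay below 0. *P4ha1*, *P4ha2*, *Adm* and *Bnip3* were not called, with log2 fold changes between -0.17 and 0.30.

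Other measures moved with diet at 24 weeks, where 4.84% of all genes were called higher and 3.87% lower. Of 10 immediate-early and heat-shock genes 6 were lower in WD ResKCs, and their summed level was 1863 to 10180 CPM (median 6734) on SD and 854 to 3843 CPM (median 1607) on WD. With the mean of their log2 CPM as a covariate 3 of the 10 calls were kept, *Pfkl* (0.54, adjusted p = 0.00242), *Pkm* (0.44, adjusted p = 0.00296) and *Pgam1* (0.44, adjusted p = 0.038), and the other 7 kept their direction. Of 12 hepatocyte genes 2 were higher on WD, with sums of 437 to 1565 CPM (median 1405) on SD and 1215 to 4037 CPM (median 2019) on WD, and none at 0. With a hepatocyte covariate 9 of the 10 rises were kept and *Egln3* was lost (adjusted p = 0.104), while *Ndrg1* was called lower (-1.19, adjusted p = 0.0314). With naming scheme as a covariate 7 were kept, without *Pgk1*, *Eno1* and *Egln3*. Within the first scheme alone (3 WD and 6 SD samples) all 10 differed in the same direction, in samples that also gave the calls. Of the other marker lists, 1 of 6 monocyte genes and 1 of 3 platelet genes were higher on WD, and 1 each of 4 B cell, 8 endothelial, 6 stellate cell or fibroblast and 3 platelet genes were lower. The part of these in the rises was not tested.

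**Figure D3:**
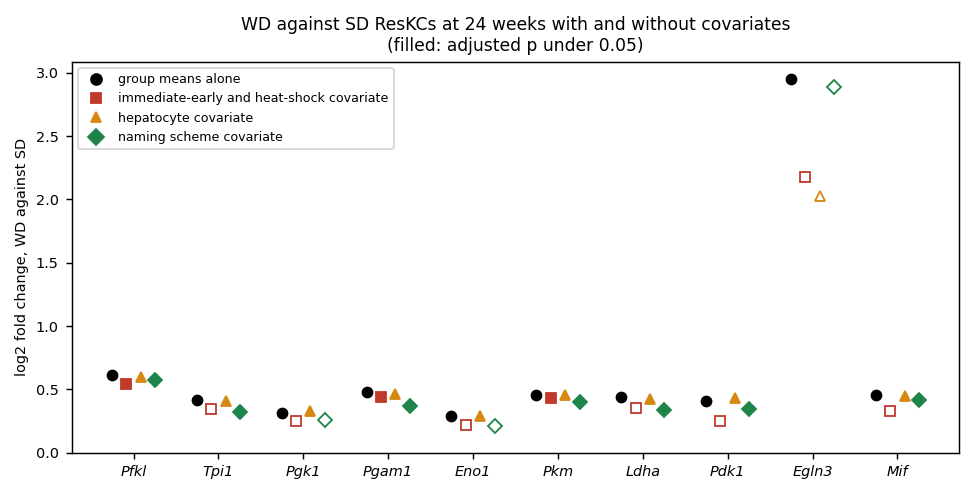
Log2 fold change (y axis) of the 10 called members in WD against SD ResKCs at 24 weeks, from group means alone and with each of 3 covariates; filled points passed an adjusted p under 0.05. *Pfkl*, *Pgam1* and *Pkm* are filled in all 4 fits, and *Egln3* only with group means alone (2.95).

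At 12 weeks 0 of 32 members were called between WD and SD ResKCs by edgeR, DESeq2 or limma-voom, where 0.0149% of all genes were called higher and 0.0224% lower, and 3 members had an unadjusted p under 0.05. These were *Pfkl* (log2 fold change 0.20, adjusted p = 0.521), *Pfkfb3* (0.38, adjusted p = 0.531) and *Mif* (0.21, adjusted p = 0.548). *Pfkl* was at 57.2 to 83.7 CPM (median 66.6) in the 7 SD samples and at 69.8, 76.7, 78.4, 81.4 and 90.5 CPM in the 5 WD samples. *Ldha* was at 515 to 653 CPM (median 553) on SD and at 580, 606, 645, 662 and 706 CPM on WD. Without SD replicate 7, which held 1.35 CPM of *Egln3* where the other 6 SD samples were at or under 0.0738 CPM, *Egln3* was called higher (3.802, adjusted p = 0.0456); with it the log2 fold change was 1.44 (adjusted p = 0.673). That sample also had a hepatocyte gene sum of 4056 CPM, and a link of this sum to its *Egln3* level was not tested.

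Whether the diet effect differed between the times was tested as the difference of both effects. By edgeR 0 of 32 members were called, where 0.0671% of genes were called higher and 0.216% lower, and 5 had an unadjusted p under 0.05. *Pkm* had a difference of 0.35 (SE 0.10, adjusted p = 0.108) and *Pfkl* 0.41 (SE 0.13, adjusted p = 0.132), both larger at 24 weeks. DESeq2 called *Pkm* (0.36, adjusted p = 0.0431), and so did edgeR scaled by library size alone (0.41, adjusted p = 0.0462). SD ResKCs at 24 against 12 weeks gave 0 of 32 calls, with 0% of all genes called, and 1 member, *Hk2* (-0.35, adjusted p = 0.445), at an unadjusted p under 0.05; DESeq2 and limma-voom also called 0.

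CLEC4F- macs were then compared with WD ResKCs at 24 weeks. Of the 32 members 6 were higher and 6 lower, where 16.1% of all genes were called higher and 17.0% lower, so the share of members called was close to that of all genes. The log2 fold changes of these 12 lay between -2.47 and 1.41. The members did not move one way: *Hk3*, *Adm*, *P4ha1* and *P4ha2* were lower and both PFKFB enzymes higher. Against moKCs 6 were higher and 4 lower, where 7.09% and 9.34% of all genes were. Both comparisons share the CLEC4F- samples. In bulk samples fewer cells of a type and less RNA per cell cannot be told apart.

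Hexokinase transcripts differed most in *Hk3*. It was at 475 to 566 CPM (median 513) in WD ResKCs, at 381, 385, 395, 480 and 513 CPM in the 5 moKC samples and at 181 to 342 CPM (median 227) in CLEC4F- macs. No CLEC4F- sample reached any sample of the other populations, and the log2 fold change was -1.11 against ResKCs (SE 0.11, adjusted p = 1.27e-09) and -0.84 against moKCs (SE 0.11, adjusted p = 2.38e-06).

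*Hk1* was at 65.6 to 121 CPM (median 82.2) in WD ResKCs, at 48.6, 67.3, 68.3, 72.7 and 120 CPM in moKCs and at 48.4 to 82.5 CPM (median 61.7) in CLEC4F- macs, and was not called (-0.39 against ResKCs, adjusted p = 0.0893). *Hk2* was at 55.3 to 84.2 CPM (median 69.2), at 58.7, 61.8, 62.6, 64.5 and 103 CPM and at 47.6 to 68.5 CPM (median 51.2) in the same order, and was not called (-0.34, adjusted p = 0.0635), though it was called lower without WD ResKC replicate 5 (adjusted p = 0.0359) or CLEC4F- replicate 2 (adjusted p = 0.0334). *Hk2* was also called in 4 of the 9 other settings, with the replicate block (adjusted p = 0.0307), the compared groups alone (0.0433) and the hepatocyte (0.0369) or naming scheme covariate (0.0396), and *Hk1* was called with the immediate-early and heat-shock covariate (-0.48, adjusted p = 0.0447). Per exon length *Hk3* made up most of the hexokinase transcripts in every sample, 85.2% to 88.6% in WD ResKCs, 81.6% to 89.0% in moKCs and 73.2% to 86.7% in CLEC4F- macs. Summed over the 3 hexokinases, WD ResKCs had 163 ± 9.09 CPM per kb (SD, n = 6), moKCs had 138 ± 21.1 (SD, n = 5) and CLEC4F- macs had 82.2 ± 14.6 (SD, n = 6). *Gpi1*, the next enzyme of the chain, was higher in CLEC4F- macs by 0.21 than in ResKCs (SE 0.070, adjusted p = 0.0179) and by 0.26 than in moKCs (SE 0.073, adjusted p = 0.0127). The first of these was lost without WD ResKC replicate 3 or CLEC4F- replicate 6 (adjusted p 0.0577 and 0.0611), and the second without moKC replicate 1 (adjusted p = 0.0569).

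No phosphofructokinase subunit was called between the populations. *Pfkl* was at 82.0 to 121 CPM (median 104) in WD ResKCs, at 81.7, 82.4, 92.6, 98.2 and 110 CPM in moKCs and at 99.2 to 115 CPM (median 108) in CLEC4F- macs. Without moKC replicate 3 it was called higher in CLEC4F- macs than in moKCs (0.28, adjusted p = 0.0488). *Pfkm* was at 2.19 to 7.52 CPM, 2.55 to 6.04 CPM and 3.14 to 4.98 CPM, and *Pfkp* at 52.7 to 75.8 CPM, 53.0 to 73.4 CPM and 60.5 to 99.0 CPM. The regulators did differ.

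*Pfkfb4* was at 24.9 to 42.5 CPM (median 29.4) in WD ResKCs, at 25.2, 31.2, 40.0, 49.9 and 52.3 CPM in moKCs and at 36.8 to 110 CPM (median 86.6) in CLEC4F- macs. The log2 fold change was 1.41 against ResKCs (SE 0.20, adjusted p = 7.10e-07) and 1.07 against moKCs (SE 0.21, adjusted p = 2.48e-04). *Pfkfb3* was at 15.96 to 27.5 CPM (median 21.7), at 16.2, 17.7, 22.0, 22.6 and 26.7 CPM and at 23.4 to 57.2 CPM (median 39.7), higher by 0.91 (SE 0.17, adjusted p = 8.31e-05) and by 0.93 (SE 0.18, adjusted p = 3.44e-04). In both genes 1 CLEC4F- sample, replicate 4, was within the range of the other populations and the other 5 were above it. Per exon length the sum of both was 22.4 ± 6.74 CPM per kb (SD, n = 6) in CLEC4F- macs and 9.26 ± 1.42 (SD, n = 6) in WD ResKCs, and *Pfkfb4* held a median of 75.7% and 70.0% of it.

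**Figure D4:**
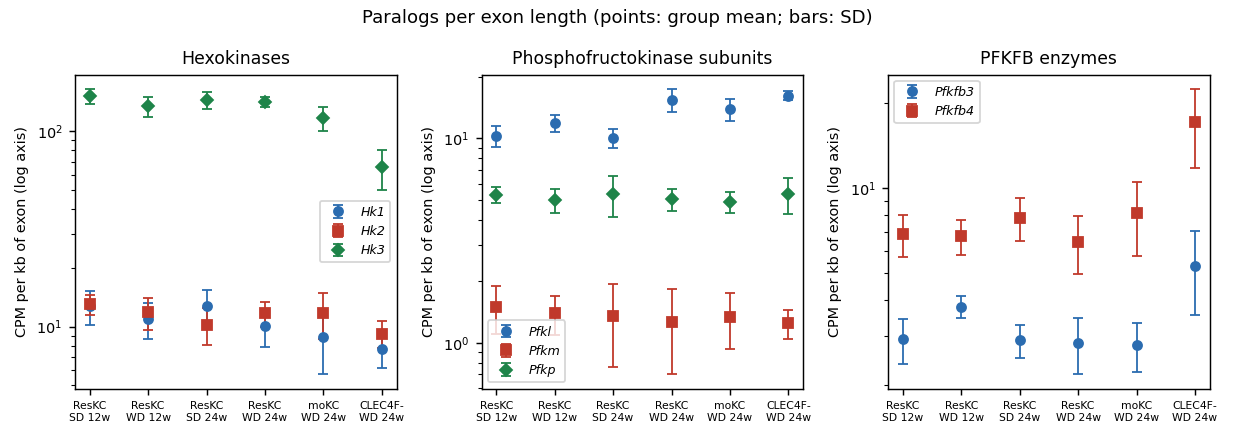
CPM per kb of exon (log y axis) of the hexokinases, the phosphofructokinase subunits and the PFKFB enzymes in the 6 groups; points are group means and bars SD. *Hk3* lies above *Hk1* and *Hk2* in every group and is lowest in CLEC4F- macs (65.4 ± 15.4), where *Pfkfb4* is highest (17.1 ± 5.34).

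In lower glycolysis *Pgam1* was at 33.6 to 51.4 CPM (median 42.5) in WD ResKCs and at 50.1 to 62.1 CPM (median 59.1) in CLEC4F- macs, higher by 0.39 (SE 0.10, adjusted p = 0.00358). Against moKCs, of which the highest had 48.7 CPM, it was higher by 0.43 (SE 0.11, adjusted p = 0.00558) with no overlap. *Eno1* was higher than in moKCs (0.27, SE 0.079, adjusted p = 0.0175) and was lost without moKC replicate 1 (adjusted p = 0.0836). The other 6, among them *Pkm*, *Tpi1* and *Aldoa*, were called in neither comparison. Of these *Pgk1* (0.21, adjusted p = 0.0775) and *Aldoc* (0.51, adjusted p = 0.106) were called higher than in ResKCs without 1 library, *Pgk1* without CLEC4F- replicate 2 (adjusted p = 0.0388) and *Aldoc* without WD ResKC replicate 2 (adjusted p = 0.0419). Against moKCs *Aldoc* (0.67, adjusted p = 0.0676) was called without CLEC4F- replicate 4 (adjusted p = 0.0488), and *Pgk1* (0.16, adjusted p = 0.289) reached 0.05 without moKC replicate 3. *Ldha* was at 690 to 912 CPM (median 821) in WD ResKCs, at 668, 843, 906, 969 and 1012 CPM in moKCs and at 726 to 1103 CPM (median 829) in CLEC4F- macs, and the groups overlapped. *Pdk1*, at 40.3 to 64.5 CPM (median 56.2) in WD ResKCs and 38.8 to 51.9 CPM (median 46.0) in CLEC4F- macs, was lower by 0.25 (SE 0.098, adjusted p = 0.0496). It was lost in 5 of the 9 other settings without a fold limit and without WD ResKC replicate 1, 2, 4 or 6 or CLEC4F- replicate 1, 2, 3 or 5 (adjusted p 0.0693 to 0.164).

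*Hif1a* was at 78.8 to 132 CPM (median 119) in WD ResKCs, at 112, 114, 116, 122 and 125 CPM in moKCs and at 115 to 136 CPM (median 122) in CLEC4F- macs, with log2 fold changes of 0.14 and 0.09 for CLEC4F- macs. *Vhl* was higher in CLEC4F- macs than in ResKCs (0.32, SE 0.11, adjusted p = 0.0207) and *Egln1* lower (-0.26, SE 0.097, adjusted p = 0.0349). Neither call was firm. *Vhl* was lost without WD ResKC replicate 2 or 3 or CLEC4F- replicate 6 (adjusted p 0.0518 to 0.0563), and *Egln1* without WD ResKC replicate 1, 2 or 4 or CLEC4F- replicate 1, 2 or 3 (adjusted p 0.0542 to 0.113). *Egln3* was at 0.557 to 1.42 CPM in moKCs and at 0.567 to 2.91 CPM in CLEC4F- macs, which overlapped WD ResKCs.

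*Adm*, which encodes the vasodilator peptide adrenomedullin (chr7:110627661-110629820), had the largest absolute log2 fold change of the 32 in both CLEC4F- comparisons. It was at 16.6 to 30.0 CPM (median 21.6) in WD ResKCs, at 10.6, 16.3, 19.9, 24.7 and 26.1 CPM in moKCs and at 1.60, 2.78, 3.17, 3.404, 4.84 and 8.69 CPM in CLEC4F- macs. All 6 CLEC4F- samples were below all others, with a log2 fold change of -2.47 against ResKCs (SE 0.26, adjusted p = 5.94e-09) and -2.27 against moKCs (SE 0.27, adjusted p = 4.72e-07). In the ResKC groups *Adm* was at 21.6 to 28.3 CPM (SD, 12 weeks), 20.1 to 44.1 CPM (WD, 12 weeks) and 12.6 to 25.3 CPM (SD, 24 weeks).

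*P4ha1* and *P4ha2* encode the catalytic subunits of collagen prolyl hydroxylase. *P4ha2* (chr11:54100095-54131665) was at 13.6 to 26.4 CPM (median 16.7) in WD ResKCs, at 18.0, 21.5, 24.9, 27.0 and 27.0 CPM in moKCs and at 3.33, 4.66, 4.92, 6.52, 8.92 and 17.4 CPM in CLEC4F- macs. It was lower by 1.24 on the log2 scale than in ResKCs (SE 0.28, adjusted p = 5.87e-04) and by 1.64 than in moKCs (SE 0.29, adjusted p = 8.06e-05). *P4ha1*, at 261 to 390 CPM (median 316) in WD ResKCs and 142 to 345 CPM (median 181) in CLEC4F- macs, was lower by 0.68 (SE 0.16, adjusted p = 7.31e-04). Against moKCs it was lower by 0.50 (SE 0.16, adjusted p = 0.0304), a call lost without moKC replicate 3 or CLEC4F- replicate 1, 2 or 3 (adjusted p 0.0835 to 0.129).

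**Figure D5:**
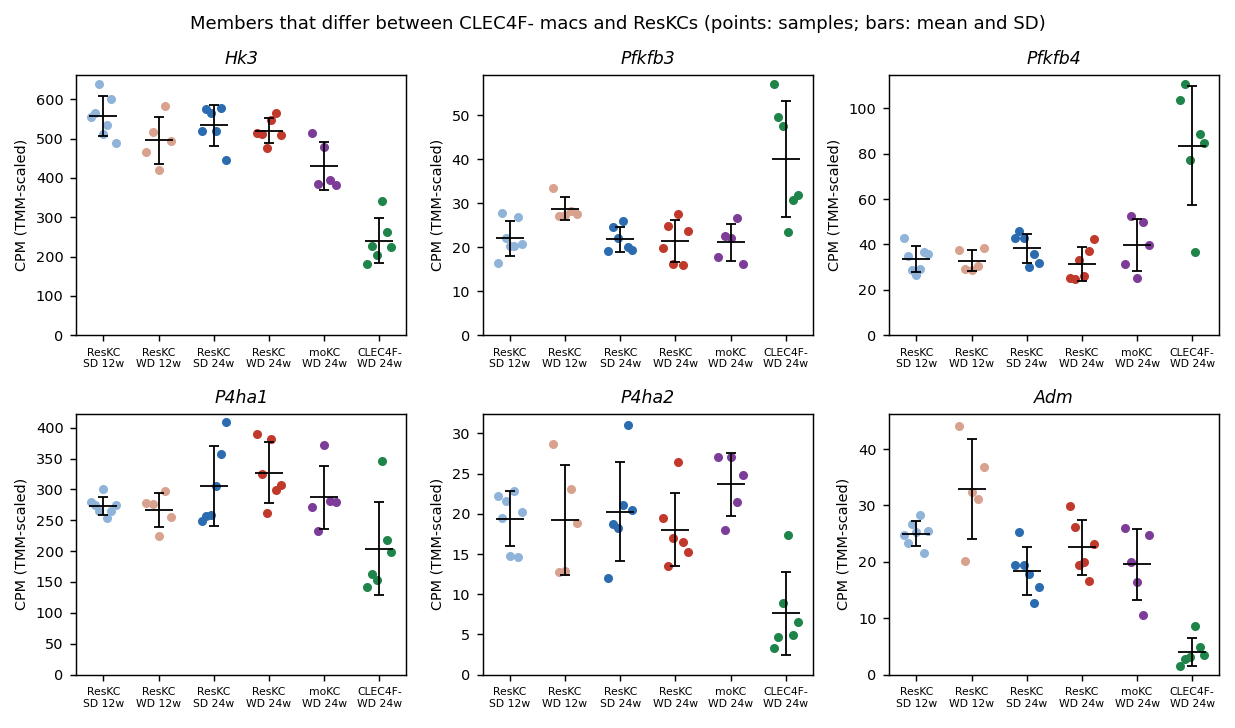
TMM-scaled CPM (y axis, from 0) of 6 members in every sample of the 6 groups (x axis), with the mean and SD of each group. In the mean CLEC4F- macs are lowest in *Hk3*, *P4ha1*, *P4ha2* and *Adm* and highest in *Pfkfb3* and *Pfkfb4*, and replicate 4 of this group lies nearest to the ResKCs in all 6 (for *Adm* at 8.69 CPM).

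*Bnip3*, a mitophagy receptor, was higher in CLEC4F- macs than in ResKCs (0.83, SE 0.25, adjusted p = 0.00858), at 7.38 to 12.0 CPM (median 9.15) against 1.89 to 8.90 CPM (median 4.96). Against moKCs *Bnip3* was not called (0.65, adjusted p = 0.0864). It was called there by limma-voom (adjusted p = 0.0469) and by edgeR on the compared groups alone (0.0207). The same held with the immediate-early and heat-shock covariate (0.0483) or the hepatocyte covariate (0.00915). *Mif* was higher than in moKCs (0.31, SE 0.10, adjusted p = 0.0284), a call lost without moKC replicate 1 or 5 or CLEC4F- replicate 4 or 6 (adjusted p 0.0526 to 0.138). *Bnip3l*, *Higd1a*, *Ndrg1* and *Ankrd37* were called in neither comparison. *Ankrd37* was at 1.14 to 2.63 CPM in CLEC4F- macs, 0.387 to 2.85 CPM in moKCs and 0.218 to 2.18 CPM in WD ResKCs.

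Without CLEC4F- replicate 4, the sample with the high Kupffer cell gene sum, all 12 calls against ResKCs were kept, and *Adm* was at -2.84, *P4ha2* at -1.67, *P4ha1* at -0.90, *Hk3* at -1.24 and *Pfkfb4* at 1.57. Against moKCs 9 of 10 were kept, without *Mif* (0.28, adjusted p = 0.0526). Within each naming scheme alone the 12 calls against ResKCs and the 10 against moKCs all kept their direction. The schemes are parts of the samples that gave the calls, so this adds no separate support. Against ResKCs the difference in the first and second scheme was -3.28 and -1.88 for *Adm* and -0.47 and -0.06 for *Egln1*. For *Vhl* it was 0.34 and 0.32. With library size alone as the scaling the calls were 13 higher and 4 lower against ResKCs in place of 6 and 6, and 11 and 4 against moKCs in place of 6 and 4, as the median of all genes against ResKCs moved from 0.02 to 0.14. *Pfkfb3*, *Pfkfb4* and *Pgam1* (higher) and *Hk3*, *P4ha2* and *Adm* (lower) were called under all 9 other settings without a fold limit in both comparisons.

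Markers of other cells moved with the sort, in a comparison where 16.1% of all genes were called higher and 17.0% lower. Of 6 monocyte genes 4 were called higher in CLEC4F- macs than in ResKCs, with sums of 377 to 1467 CPM (median 929) against 92.3 to 171 CPM (median 135), and *Chil3* was at 0 in 16 samples of the series. Of 4 dendritic cell genes 2 were higher (sums 13.2 to 161 CPM against 6.84 to 18.2 CPM), as were all 4 B cell genes (52.5 to 521 CPM against 17.5 to 52.6 CPM) and all 3 tested of 6 T and NK cell genes (4.40 to 17.7 CPM against 1.30 to 3.39 CPM). Of the immediate-early and heat-shock genes 3 of 10 were higher. All 3 platelet genes (94.6 to 177 CPM against 16.8 to 99.6 CPM) and 3 of 6 stellate cell or fibroblast genes (70.4 to 255 CPM against 33.7 to 99.8 CPM) were higher, and 4 of 5 pan-macrophage genes (5569 to 9633 CPM against 11980 to 15110 CPM) and 2 of 8 endothelial genes (477 to 863 CPM against 769 to 1316 CPM) were lower. Of 12 hepatocyte genes 0 were called by edgeR, 0 also at an unadjusted p under 0.05. Neutrophil genes were near 0 (2.34 to 6.45 CPM against 1.23 to 4.14 CPM), with *Ly6g* at 0 in all 35 samples. The part of these cells in the fold changes was not tested.

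Between moKCs and WD ResKCs 0 of 32 members were called by edgeR, DESeq2 or limma-voom, where 0.991% of all genes were called higher and 2.00% lower, a background too low for the count of 0 to set the members apart. At an unadjusted p under 0.05 there were 4, all lower in moKCs: *Hk3* (-0.27, adjusted p = 0.209), *Aldoa* (-0.20, adjusted p = 0.183), *Eno1* (-0.20, adjusted p = 0.186) and *Pkm* (-0.20, adjusted p = 0.161). Their standard errors lay between 0.076 and 0.11.

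Beyond the 32, 36 further genes of glycolysis and glucose handling were listed, of which 35 were tested. Between WD and SD ResKCs at 24 weeks 3 rose and 0 fell, with a median log2 fold change of 0.0032. Of all genes tested 4.84% were called higher and 3.87% lower. *Slc16a1*, a monocarboxylate transporter that moves lactate, was at 9.43 CPM on WD and 3.19 CPM on SD in the mean (1.56, SE 0.44, adjusted p = 0.0226). Between CLEC4F- macs and ResKCs 8 were higher and 7 lower, where 16.1% of all genes were called higher and 17.0% lower. *Ldhb*, the other lactate dehydrogenase subunit (2.42, SE 0.34, adjusted p = 7.57e-07), *Slc16a1* (1.42, SE 0.42, adjusted p = 0.00747) and the enolase *Eno2* (3.59, SE 0.95, adjusted p = 0.00338, at 1.62 and 0.123 CPM in the mean, the latter below the level of 3 counts) were higher, and *Pygl*, a glycogen phosphorylase, was at -1.14 (SE 0.11, adjusted p = 1.90e-09). *Ldhb* was also higher in moKCs than in ResKCs (1.43, SE 0.34, adjusted p = 0.0148), the 1 call of this list there. In that comparison 0.991% of all genes were called higher and 2.00% lower.

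Of 8 pentose phosphate genes, which branch off after hexokinase, 0 were called for diet at 24 weeks by edgeR, 1 having an unadjusted p under 0.05, and 1 was higher and 3 lower in CLEC4F- macs than in ResKCs. Of 36 further HIF pathway and hypoxia genes 30 were tested. For diet at 24 weeks 2 rose and 1 fell; *Angptl4*, which inhibits lipoprotein lipase and is also a target of lipid-sensing receptors, was the 1 past a log2 fold change of 1 (2.18, SE 0.30, adjusted p = 1.63e-05). In CLEC4F- macs against ResKCs 6 were higher and 6 lower. Beside the pentose phosphate and HIF counts, 4.84% of all genes were called higher and 3.87% lower for diet at 24 weeks. In CLEC4F- macs against ResKCs these shares were 16.1% and 17.0%. *Vegfa*, the angiogenic growth factor, was at 16.3 CPM against 3.31 CPM in the mean (2.30, SE 0.54, adjusted p = 9.81e-04). *Cxcr4* was higher too (3.16, SE 0.47, adjusted p = 2.29e-06). So was *Lox* (3.63, SE 0.85, adjusted p = 0.00134), at 2.78 and 0.213 CPM in the mean, the latter near the level of 3 counts. Lower were *Hmox1*, which breaks down haem, at 740 against 2321 CPM (-1.65, SE 0.18, adjusted p = 1.23e-08), and *Plod1* at -1.27. *Hmox1* was also lower in moKCs than in ResKCs (-1.16, SE 0.19, adjusted p = 2.72e-04).

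As a summary without a test, the mean over members of log2 CPM centred per gene was -0.10, -0.04, -0.11 and 0.09 in SD and WD ResKCs at 12 weeks and SD and WD ResKCs at 24 weeks, 0.08 in moKCs and 0.10 in CLEC4F- macs. Over the 19 glycolysis members it was 0.09 ± 0.080 (SD, n = 6) in WD ResKCs at 24 weeks and 0.18 ± 0.072 (SD, n = 6) in CLEC4F- macs, and over the 13 hypoxia response members 0.10 ± 0.15 (SD, n = 6) and -0.0042 ± 0.14 (SD, n = 6). SD ResKCs at 24 weeks were at -0.11 ± 0.074 and -0.10 ± 0.085 (SD, n = 6) on these scores. The moKCs were at 0.015 ± 0.085 and 0.16 ± 0.16 (SD, n = 5), the latter the highest hypoxia response mean of the 6 groups. Every gene counts alike in a score, whatever its level. From SD to WD ResKCs at 24 weeks the mean log2 CPM went from -1.93 to 0.25 in *Egln3* and from -1.14 to -0.16 in *Ankrd37*. Both genes are limited by depth, and the higher hypoxia response score on WD depends on them.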

How the data were processed

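Bulk RNA-seq of 35 sorted liver macrophage samples in 6 groups was used. The authors prepared TruSeq libraries, sequenced single reads, mapped them to mm10 with HISAT2 2.2.0 and counted them with featureCounts 2.0.0; the deposited values are their unnormalized counts per gene symbol. Which annotation was counted, whether strand was used, and how multiply mapping reads were treated is not given in the sources used here.

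A gene was tested if at least 5 samples had it above 1 CPM, which left 13421. With TMM scaling, edgeR 4.0.16 (R 4.3.3) fitted its quasi-likelihood model as 1 fit of 6 group means over all samples, with Benjamini-Hochberg adjustment over all genes tested, and a gene was called at an adjusted p under 0.05. SE is the log2 fold change over the square root of F. Log2 CPM used a prior count of 2. The study's methods use limma. The alternatives were DESeq2 1.42.0, limma-voom (version 3.58.1), omission of the filter, scaling by library size alone, a log2 fold change limit of 1, the compared groups alone, the replicate number as a block, 3 covariates, and leaving out each replicate. The fit was tested on simulated data.

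Gene positions and exon lengths are from GENCODE M21 and promoters from RefSeq (GRCm38.p6). The windows compared between transcripts were 75 bases long. Members in every role were accounted for; those called in a comparison were named, and the hexokinases, phosphofructokinase subunits, PFKFB enzymes, *Ldha*, *Pdk1*, *Hif1a* and members called with an absolute log2 fold change over 1 were given by sample. Other pathway genes were named where called past that limit, except 1 that is not reported here, and *Chil3* and *Ly6g* after their values were seen. The members and lists were chosen with earlier results of these data known. Labels do not say that samples came from separate mice, so p-values measure the spread between samples. Intervals and floors cover counting error only.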

Additional observations from a re-analysis of the deposited data

Results flagged for a closer look

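In 192 sets of values (32 genes in 6 groups of 5 to 7 samples) 9 held a sample far from the rest by Dixon's test. Chance flags about 1 set in 20, which is 9.6 sets here, so the flags are no more than chance would give. moKC replicate 1 was highest for *Hk2*, at 103 CPM where the next sample had 64.5 CPM, and lowest for *Pgam1*, at 27.6 CPM where the next had 43.2 CPM. CLEC4F- replicate 1 was highest for *Pfkp* (99.0 CPM, next 73.9 CPM) and *Aldoc* (11.9 CPM, next 6.53 CPM). WD ResKC replicate 3 at 24 weeks was lowest for *Pkm* (634 CPM, next 776 CPM). SD ResKC replicate 7 at 12 weeks was highest for *Egln3* (1.35 CPM, next 0.0738 CPM). WD ResKCs at 12 weeks had a high *Pfkfb3* in replicate 1 (33.3 CPM, next 28.2 CPM) and a high *Vhl* in replicate 5 (39.1 CPM, next 33.5 CPM), and moKC replicate 5 had a high *Vhl* (39.4 CPM, next 33.0 CPM). No member differed between the diet effects of the times in the test of that difference by edgeR.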

How the results depend on the processing

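The counts of members called changed little under most settings. With a log2 fold change limit of 1 added, 1 member was called for diet at 24 weeks (10 without the limit), 4 for CLEC4F- macs against ResKCs (12) and 3 against moKCs (10), by construction of the limit. The immediate-early and heat-shock covariate left 3 for diet at 24 weeks. In the difference of diet effects DESeq2 called 1 and library size alone called 1, both *Pkm*, where the main test called 0. Leaving out 1 replicate gave 0 to 1 calls for diet at 12 weeks, 8 to 10 for diet at 24 weeks, 10 to 13 for CLEC4F- macs against ResKCs and 7 to 11 against moKCs. Among the other settings that set no fold limit, the lowest count for CLEC4F- macs against ResKCs was 8, without a filter. The lowest for diet at 24 weeks with a replicate left out was also 8. With the replicate number as a block (replicate block), 0, 11, 13, 0 and 10 members were called for diet at 12 and 24 weeks, CLEC4F- macs against ResKCs, moKCs against ResKCs and CLEC4F- macs against moKCs, and 0 in the other comparisons. The correlation of the deviations of same-numbered samples was -0.112, 0.056, 0.117, 0.001, -0.032 and 0.048 in the mean, not over 0.1 in every pair of any comparison, so the numbers were not taken to pair samples. No called fold change of a member reversed its sign in any setting. *Egln3* (13 counts on SD at 24 weeks) and *Ankrd37* are limited by depth.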
